A study of Homo sapiens with 402 samples.

Results

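The genes described here are 7 that human cells use against osmotic stress: the transporter genes SLC6A12, SLC5A3 and SLC6A6, the enzyme gene AKR1B1, the transcription factor gene NFAT5, the kinase gene SGK1 and the water channel gene AQP3. They are 7 of the 34721 gene symbols counted in a series of 402 RNA-seq libraries, of which 333 were dosed with 1 of 21 chemicals and 69 were controls. All libraries came from MCF10A, a non-tumorigenic human breast epithelial line, labelled wild type, and treatment lasted 48 hours at doses of 0.025, 0.25, 2.5 and 25 µM, each with 4 replicates that the labels call biological. The 7 genes were chosen on measured values: on the plate that held DDE, libraries at the beginning and end of each run of 8 library numbers (1, 8, 9 and 16, called end libraries below) held far more SLC6A12 than the others, and the 7 genes were taken with that contrast known.

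The DDE plate held 24 libraries, whose barcodes end in 1 in the labels where those of the other 4 plates, called the later plates below, end in 2: 16 dosed with DDE (labelled plate 2250-AT, solvent DMSO) and 8 controls, numbered 9 to 16, that carried the DDE plate's barcode but were labelled plate 3153-AT and solvent water. DDE, solvent and plate label therefore cannot be told apart in any comparison of DDE with its controls. Plate 3153-AT had 15 water controls and the metals mercury, lead, copper, cadmium and arsenic. Plate 3206-AT had 15 DMSO controls and the chemicals PPB, MPB, BPS, BPF and BPA. Plate 3240-AT had 12 DMSO controls for phenanthrene, PFOS, PFNA and PFDA, and 4 water controls for PFOA. Plate 3284-AT had 15 DMSO controls and the chemicals thiram, PCB187, PCB153, DCP_25 and DCB_14. Library totals had a median of 6.42 M counts (M for mega) on the DDE plate (3.06 to 8.87) and ranged from 1.43 to 25.8 M on the later plates. The epithelial markers KRT5, KRT14, KRT17, TP63, EGFR, CDH1 and EPCAM were all listed on every plate. Of 5 markers of other cell types, the leukocyte marker PTPRC had a median of 0 CPM (counts scaled to the library total) on all 4 later plates and the 5 together summed to at most 13.5 CPM there. On the DDE plate the 3 of them that were listed (PECAM1, COL1A1 and ESR1) summed to 4.33 to 29.2 CPM, above the later plates at the upper end, and COL1A1 alone had a median of 12.9 CPM.

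In hypertonic surroundings a cell loses water, and the transcription factor NFAT5 (also called TonEBP) raises genes that let the cell gather small organic solutes, the osmolytes. SLC6A12 (BGT1) carries betaine and GABA, SLC5A3 (SMIT1) carries myo-inositol, SLC6A6 carries taurine, and AKR1B1 (aldose reductase) makes sorbitol from glucose. SGK1 is a kinase, induced by glucocorticoids and by cell shrinkage, that acts on ion transport, and AQP3 is a channel for water and glycerol. Osmolarity was not measured in this series.

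In the GENCODE v29 annotation of GRCh38, SLC6A12 lies on the minus strand at chr12:190077-214570, SLC5A3 on the plus strand at chr21:34073570-34106262 and SLC6A6 on the plus strand at chr3:14402576-14489349. AKR1B1 lies on the minus strand at chr7:134442350-134459284, NFAT5 on the plus strand at chr16:69565094-69704666, SGK1 on the minus strand at chr6:134169246-134318112 and AQP3 on the minus strand at chr9:33441154-33447633. SLC5A3 lies within the span of MRPS6, a mitochondrial ribosomal protein gene on the same strand (chr21:34073224-34143034), so reads of the pair may not have been separable. AKR1B1 has closely related family members, and how shared reads were counted is not given in the sources used here.

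Because several of these genes rose and fell together on the DDE plate, their promoters were read from RefSeq (GRCh38.p14, windows of 250 bases). Promoter entries were found for 4 of the 7 genes: 1 for SLC5A3, 2 for AKR1B1, 3 for SGK1 and 1 for AQP3. The motif TGGAAA, the fixed first letters of the tonicity-responsive element bound by NFAT5, was in 0 of these 7 entries on either strand, against 18% of 35116 promoter entries. Its shorter part GGAAA was in 4 of the 7 entries, against 55.6% of all. The entries are few and not independent, since those of AKR1B1 overlap, and sequence outside these windows was not searched. The windows of SLC5A3 and of the first AKR1B1 entry are shown because these genes had the largest differences between end and other libraries after SLC6A12. Capitals mark GGAAA, of which the SLC5A3 window has none. The SLC5A3 window (chr21:34073328-34073577, plus strand) is identical to that of MRPS6, and the AKR1B1 window is at chr7:134459101-134459350 on the minus strand.
SLC5A3: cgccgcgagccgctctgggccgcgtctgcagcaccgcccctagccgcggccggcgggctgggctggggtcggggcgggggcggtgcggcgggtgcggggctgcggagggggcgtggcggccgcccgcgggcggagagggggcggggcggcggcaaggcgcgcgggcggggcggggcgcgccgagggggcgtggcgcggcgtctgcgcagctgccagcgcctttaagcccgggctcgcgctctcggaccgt
AKR1B1: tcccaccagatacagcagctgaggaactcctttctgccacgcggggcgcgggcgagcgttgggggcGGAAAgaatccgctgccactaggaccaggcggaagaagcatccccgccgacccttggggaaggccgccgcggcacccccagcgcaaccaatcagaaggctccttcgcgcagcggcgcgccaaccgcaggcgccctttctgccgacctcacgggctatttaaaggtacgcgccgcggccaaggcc

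On the DDE plate, SLC6A12 was highest in the first and last control and lowest between them. Along controls 9 to 16 it stood at 747.9, 48.8, 13.6, 9.31, 19.9, 41.8, 206.2 and 734.6 CPM. The controls numbered 11 and 12 were the lowest. In the 16 DDE libraries the same shape recurred at a lower level: the end libraries held 5.22 CPM (25 µM, number 1), 28.8 CPM (2.5 µM, number 8), 4.88 CPM (0.25 µM, number 9) and 112.7 CPM (0.025 µM, number 16), while the other 12 held between 0 and 1.04 CPM with a median of 0. Summed over libraries, SLC6A12 was 742 CPM in the 2 control ends (exact 95% Poisson interval 724 to 761), 66.8 CPM in the 6 other controls (64.2 to 69.4), 39.6 CPM in the 4 DDE ends (37.4 to 41.9) and 0.218 CPM in the 12 other DDE libraries (0.125 to 0.354, from 16 counts). These intervals cover counting error only.

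SLC5A3 followed the same course. Controls 9 to 16 held 554.5, 96.7, 34.4, 39.4, 39.5, 82.4, 166.8 and 625.2 CPM. The DDE end libraries held 38.4, 61.4, 56.2 and 118.9 CPM (numbers 1, 8, 9 and 16), all above the other 12, which ran from 8.15 to 21.2 CPM with a median of 17.7. MRPS6, whose span covers SLC5A3, was at 757 and 499 CPM in the control ends and at most 233.8 CPM in the other controls.

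AKR1B1 had 12383, 3879, 2455, 2598, 3217, 4529, 6947 and 9688 CPM along controls 9 to 16. In DDE libraries 1, 8, 9 and 16 it was at 1664, 4142, 3115 and 5447 CPM, and in the other 12 between 336 and 794 CPM with a median of 414. No end library of either set overlapped the others of its set. Mean AKR1B1 was lower with each step from the end of the row: 11035, 5413, 3492 and 2907 CPM in controls that were 0, 1, 2 and 3 numbers from an end, and 3592, 609, 426 and 367 CPM in DDE libraries.

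**Figure D1:**
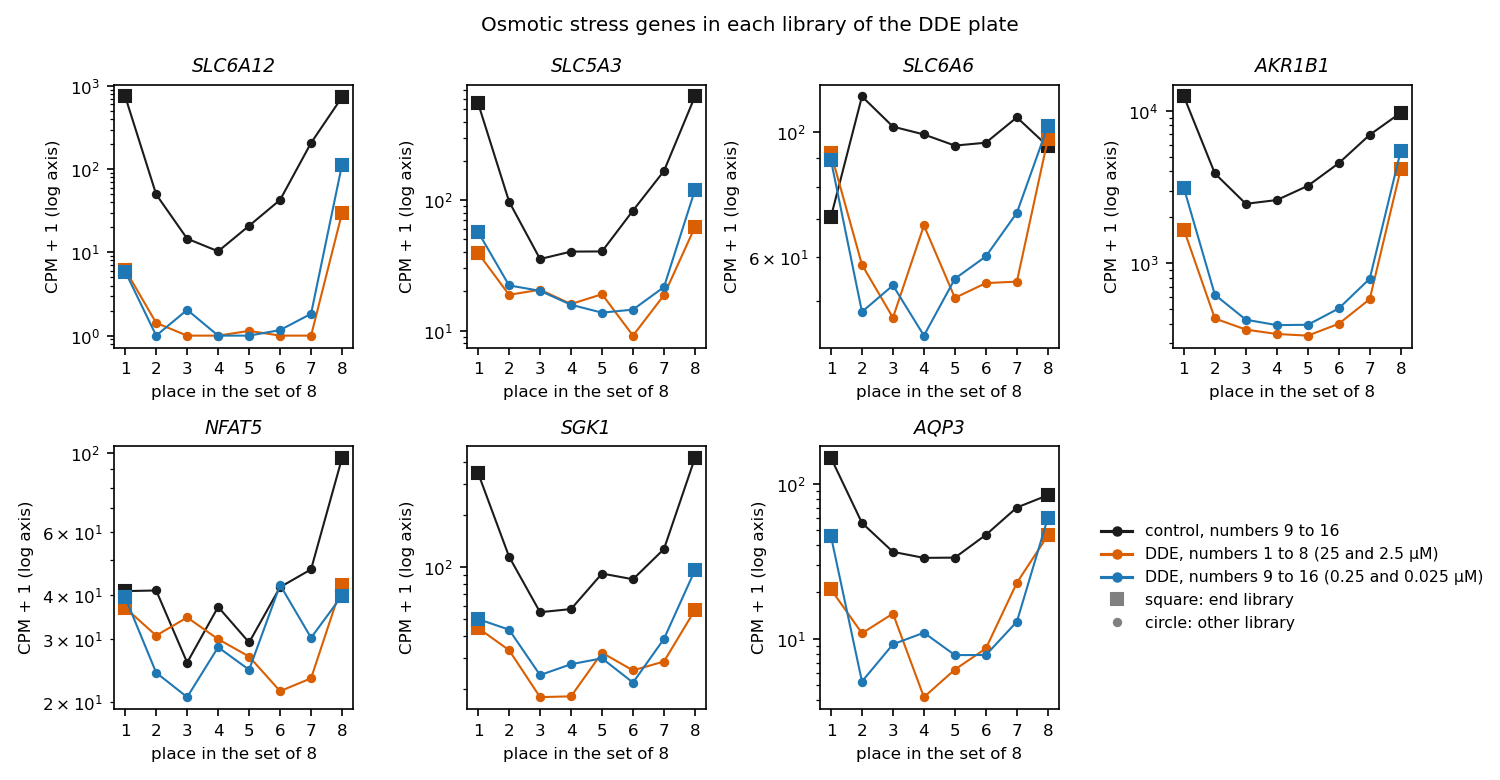
CPM + 1 of the 7 genes in each of the 24 libraries of the DDE plate on a logarithmic axis, with the place of the library in its set of 8 numbers on the horizontal axis, squares for end libraries and a line each for the controls and the DDE sets. SLC6A12, SLC5A3 and AKR1B1 are highest at places 1 and 8 of every set, and the control line lies above the DDE lines at every place for these genes.

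SGK1 had 345.9 and 423.0 CPM in the control ends and 54 to 125.9 CPM (median 87.4) in the other controls. Its DDE end libraries held 43.6, 55.6, 49.2 and 94.9 CPM, above the other 12 at 16.9 to 42.6 CPM (median 27.1). AQP3 had 145.6 and 83.3 CPM in the control ends against 32.2 to 69.2 CPM in the other controls. AQP3 in the DDE ends was 19.8, 45.3, 44.7 and 59.1 CPM, and the other 12 reached 21.9 CPM (median 7.90), so that 1 end library fell inside their range.

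SLC6A6 and NFAT5 varied least. SLC6A6 had 69.7 and 93.4 CPM in the control ends, not above the other controls (93.7 to 114.8 CPM), whereas in DDE libraries the ends (90.7, 96.2, 88.1 and 101.6 CPM) all exceeded the other 12 (42.4 to 70.9 CPM). NFAT5, the regulator itself, had 40.0 and 95.9 CPM in the control ends and 24.8 to 46.2 CPM in the other controls. Its DDE ends (35.8, 41.7, 38.3 and 38.8 CPM) overlapped the other 12 (19.6 to 41.6 CPM).

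Ends lay wholly above the other libraries for 5 of 7 genes in the controls, where 12.7% of the 13921 genes tested did so, and for 5 of 7 in the DDE libraries, where 4.71% did so. In a fit with a term for end libraries, the difference (log2, end minus other) was 4.09 ± 0.36 (SE) for SLC6A12, 2.45 ± 0.22 for SLC5A3, 2.47 ± 0.18 for AKR1B1, 1.60 ± 0.17 for SGK1, 1.78 ± 0.20 for AQP3, 0.48 ± 0.12 for SLC6A6 and 0.64 ± 0.15 for NFAT5. The median was 1.78 for the 7 genes and 0.01 for all genes, of which 32.1% passed an adjusted p of 0.05 (17.2% higher in ends). This contrast chose the genes, so these values are a description. The share of mitochondrial counts moved with the split in the controls (6.80% to 6.93% in ends, 7.57% to 8.24% in others) and overlapped in the DDE libraries, and the summed epithelial markers were 6331 to 7382 CPM in DDE ends and 3427 to 5081 CPM in the other DDE libraries. The 3 listed markers of other cell types summed to 23.6 to 29.2 CPM in control ends, 14.1 to 26.4 CPM in other controls, 12.8 to 17.4 CPM in DDE ends and 4.33 to 23.9 CPM in other DDE libraries. The part of these measures in the result was not tested.

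A split by the same places was then tested on the later plates, whose libraries did not define it. Dosed libraries there are numbered 1 to 4 within each dose, so their places were assigned in the DDE plate's order of doses. That order was assumed and is not in the labels of the later plates. On each of the 4 plates 6 of the 7 genes had enough counts to be tested, SLC6A12 being the exception. With these assigned places called ends, 0 of 6 genes passed on any plate, and 0.0% of all genes passed by edgeR's quasi-likelihood test (914 to 1248 genes per plate at an unadjusted p under 0.05). DESeq2 called 0 of the 6 genes on each plate, and 1, 0, 1 and 0 genes of all on 3153-AT, 3206-AT, 3240-AT and 3284-AT. Differences of the 6 genes (log2, end minus other) ran from -0.16 ± 0.16 for AQP3 on 3206-AT to 0.10 ± 0.06 for SLC6A6 on 3153-AT. AKR1B1 had the smallest unadjusted p, 0.0476 on 3206-AT (0.09 ± 0.04, adjusted p = 0.999 by edgeR). Wells were given by barcode only, so where on a plate the end libraries lay was not analysed here. With only the libraries that carry the DDE plate's 24 well barcodes, split by whether the barcode was that of a DDE plate end library, again 0 of the 6 genes passed on each later plate. The share of all genes called in that fit is not given here, so this count is no result about the 6 genes.

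**Figure D2:**
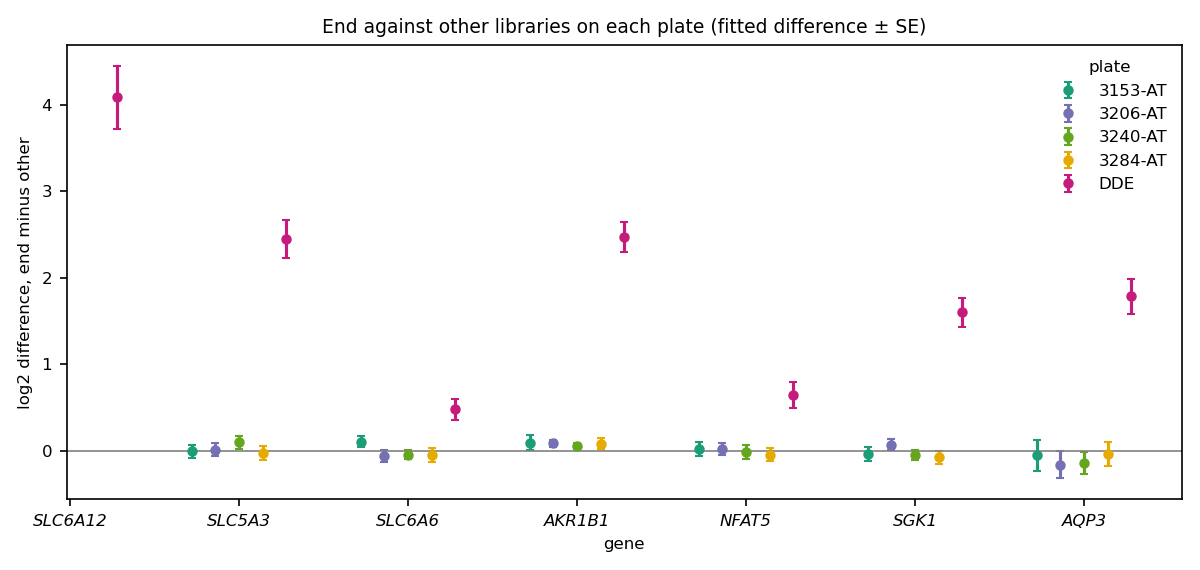
Fitted log2 difference between end and other libraries with its standard error for each gene on each plate. On the DDE plate the values run from 0.48 for SLC6A6 to 4.09 for SLC6A12, and on the 4 later plates all lie between -0.16 and 0.10; SLC6A12 was tested on the DDE plate alone.

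Levels on the later plates were set beside those of the DDE libraries away from the ends. CPM were computed on different gene lists for the DDE plate and the later plates (15081 and 34718 symbols, 15078 shared), which bears on levels set side by side. Over 377 later libraries the median was 17.6 CPM for SLC5A3, 31.5 for SLC6A6, 682 for AKR1B1, 19.1 for NFAT5, 28 for SGK1 and 6.87 for AQP3. In the 12 DDE libraries away from the ends the medians were 17.7, 53, 414, 26.7, 27.1 and 7.90 CPM for the same genes. SLC5A3, SGK1 and AQP3 thus had medians close to each other in both, SLC6A6 and NFAT5 were lower on the later plates and AKR1B1 was higher.

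SLC6A12 was nearly absent from the later plates. It had counts in 10 of 377 libraries, at most 12 counts or 1.17 CPM, and its summed level was 0.0128 CPM (exact 95% Poisson interval 0.00976 to 0.0164). The 61 later controls held 0 counts, which allows up to 0.00423 CPM by the limit of 3 counts over the group. Of the 10 libraries 3 were ends: arsenic 25 µM replicate 1, BPS 0.25 µM replicate 1 and PFOA 2.5 µM replicate 4. The lowest SLC6A12 level of any DDE plate control, 9.31 CPM, was reached by none of the 377. SLC5A3 and AKR1B1 likewise had 0 of 377 libraries at or above their lowest DDE plate control, SLC6A6 had 1, SGK1 5, AQP3 7 and NFAT5 51.

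**Figure D3:**
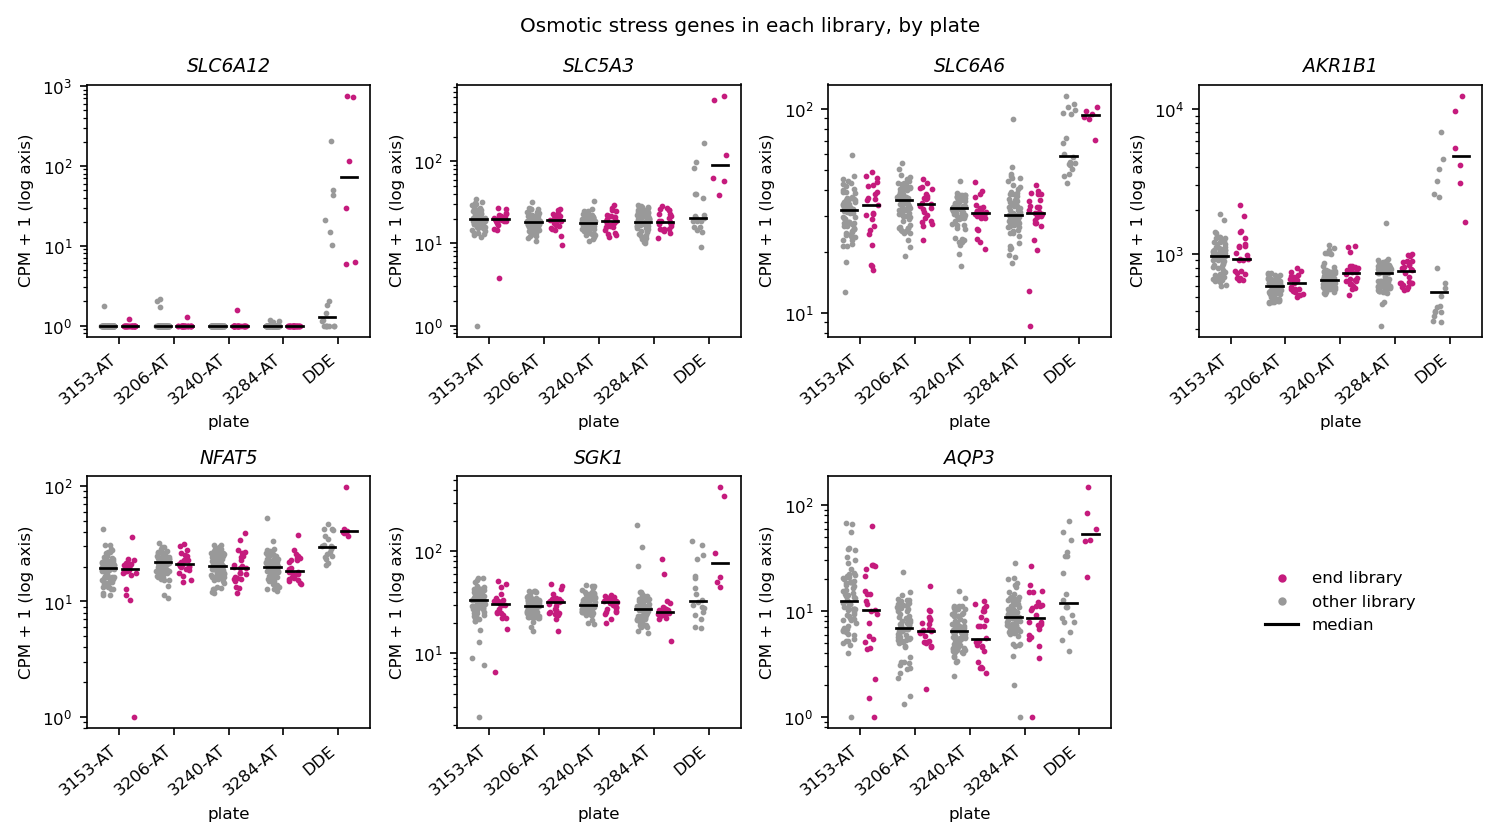
CPM + 1 of each gene in every library by plate on a logarithmic axis, with end and other libraries in separate columns and a bar at the median of each. SLC6A12 stays at or under 1.17 CPM on the 4 later plates and reaches 747.9 CPM on the DDE plate, and the end and other columns lie side by side on the later plates.

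DDE libraries held less of these genes than their controls at the same place in the run. The control exceeded the DDE library in 16 of 16 such pairs for SLC6A12, SLC5A3, AKR1B1, SGK1 and AQP3. It did so in 14 for NFAT5 and in 12 for SLC6A6. Each control was paired with a library of both DDE sets, so these pairs are not independent. The share of all genes with such counts is not given here. Away from the ends the ratio of mean CPM, control over DDE, was 261 for SLC6A12, 8.43 for AKR1B1, 4.94 for AQP3, 4.63 for SLC5A3, 3.19 for SGK1, 1.87 for SLC6A6 and 1.33 for NFAT5. The 6 controls lay wholly above the 12 DDE libraries for 6 of 7 genes, all but NFAT5, where 3.44% of genes did so. The same libraries chose the genes, so this is not independent evidence about DDE.

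At 25 µM, 5 of the 7 genes were called lower than in the controls by edgeR, against 7.77% of all genes called (4.22% lower). The same libraries chose the genes, so neither these calls nor those of the DDE fits below are independent evidence about DDE. SLC6A12 passed the count filter through the controls and the end libraries, where it is high, so its call is no support and its difference is a description: -7.10 ± 1.64 (log2, DDE minus control, ± SE). The median difference was -2.53 (log2) for the 7 genes and -0.03 for all genes. The difference on the same scale was -3.15 ± 0.82 for SLC5A3 (adjusted p = 0.0309), -3.03 ± 0.84 for AKR1B1 (0.0346), -2.53 ± 0.54 for SGK1 (0.0223) and -2.37 ± 0.63 for AQP3 (0.0326). SLC6A6 had -0.56 ± 0.21 (adjusted p = 0.0854) and NFAT5 -0.44 ± 0.27 (0.283). Since every dose had 1 end library of 4 and the controls 2 of 8, doses were balanced over the split. The calls, more than the differences, depended on which libraries were fitted. Without replicate 2 of each dose, which removes 4 libraries, none of the 7 passed, with SLC5A3 at -3.05, AKR1B1 at -2.86, SGK1 at -2.61 and AQP3 at -2.28 (adjusted p = 0.130 to 0.142 by edgeR). Without replicate 3 of each dose none passed either, with -3.09, -2.82, -2.37 and -2.43 for the same genes (adjusted p = 0.149 to 0.168). Without control 9 only 2 of the 7 passed and without control 15 only 3 did. The summed epithelial markers were 3427 to 6331 CPM at 25 µM DDE and 5740 to 7446 CPM in the controls, and the 3 listed markers of other cell types 8.80 to 17.4 and 14.1 to 29.2 CPM. What part these had was not tested.

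With a term for end libraries, 6 of the 7 genes were lower at 25 µM, NFAT5 excepted (adjusted p = 0.107), and 25.0% of all genes were called. Leaving the end libraries out also gave 6 lower genes (19.2% of all called), with SLC6A12 at -8.42, AKR1B1 at -3.35, AQP3 at -2.34, SLC5A3 at -2.19, SGK1 at -1.95 and SLC6A6 at -0.84, while NFAT5 was at -0.26 (log2) and was not called.

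Among the 4 DDE doses no trend was called. SLC6A12 had median levels of 0.499, 0.521, 0.0698 and 0.210 CPM at 0.025, 0.25, 2.5 and 25 µM DDE, and AKR1B1 650, 525, 492 and 401 CPM. No gene of the 13921 (0.0%) had a dose trend by edgeR (522 at an unadjusted p under 0.05) or by DESeq2. At the lower doses edgeR called only SGK1 at 2.5 µM, with -2.20 ± 0.52 (adjusted p = 0.0494), where 0.496% of all genes were called (0.0216% at 0.25 µM and 0.00718% at 0.025 µM). DESeq2 called SGK1 (-2.30, adjusted p = 0.0073) and SLC5A3 (-3.06, 0.0137) at 2.5 µM. At 0.25 µM it called SGK1 (-2.26, adjusted p = 0.00708), SLC5A3 (-2.96, 0.0154), SLC6A6 (-0.76, 0.0193), AKR1B1 (-2.37, 0.0389) and SLC6A12, and at 0.025 µM none of the 7. The shares of all genes that DESeq2 called at these doses are not given here, and edgeR's shares are no background for the DESeq2 calls. With the end term all 7 genes were lower at 2.5 and 0.25 µM (19.8% and 20.4% of all genes called), and all but NFAT5 at 0.025 µM (12.1%).

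**Figure D4:**
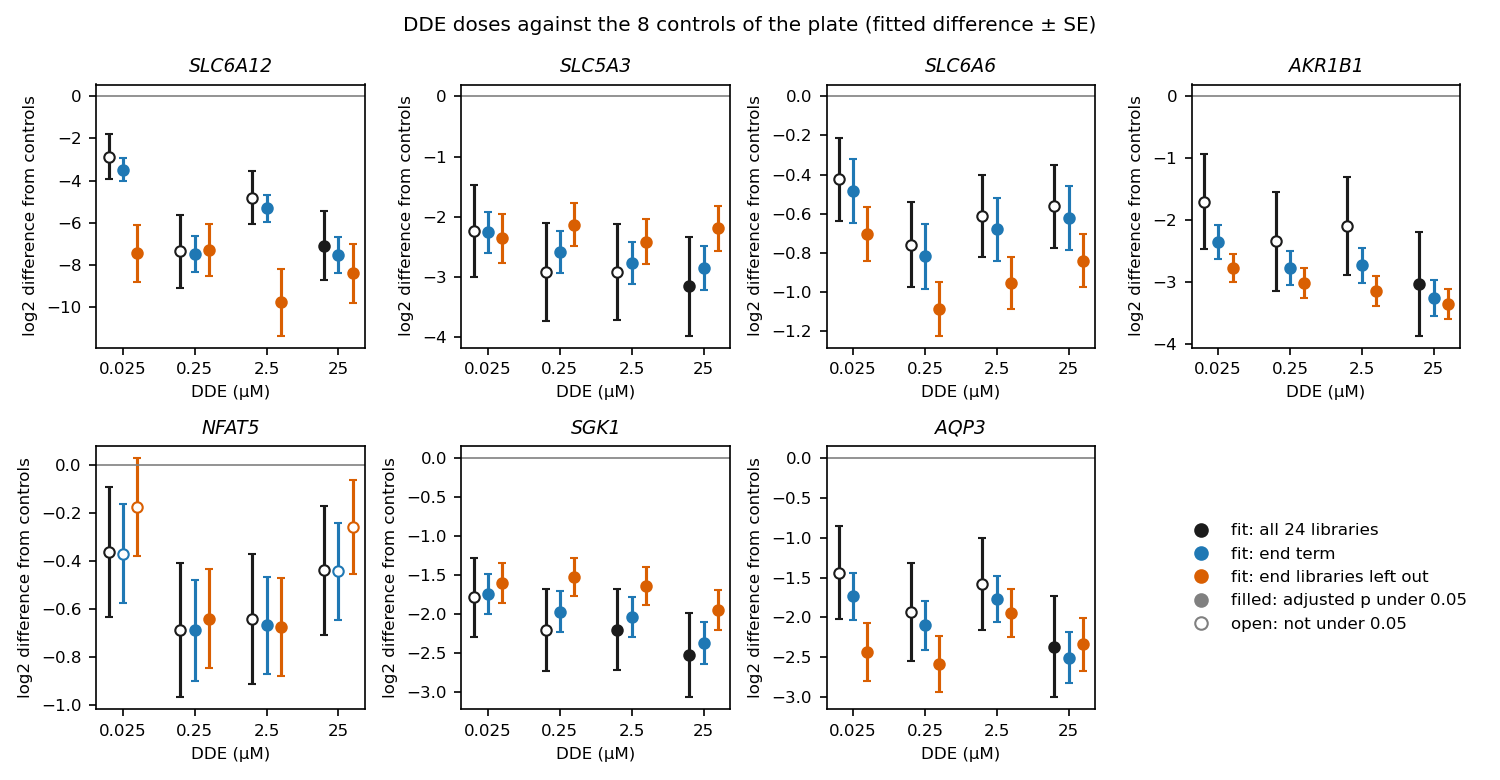
Fitted log2 difference from the 8 controls with its standard error at each DDE dose, from all 24 libraries, with an end term, and with end libraries left out, filled where the adjusted p was under 0.05. All fits give values below 0 for the 7 genes, and the all-library fit is filled at 25 µM for 5 genes and at 2.5 µM for SGK1 alone.

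Among the 20 chemicals of the later plates, 11 pairs of gene and chemical passed at 25 µM, all with arsenic, copper, lead or thiram. With the DDE calls this made 16 of 127 pairs tested (10 higher and 6 lower) against 4.85% of all genes over the same 21 chemicals. The 5 DDE calls, SLC6A12 among them, came from the libraries that chose the genes, so the total of 16 is a description. SLC5A3 was called for none of the 20 chemicals of the later plates by edgeR. None of the 30 pairs on 3206-AT and none of the 30 on 3240-AT was called by edgeR or DESeq2 (3 and 1 at an unadjusted p under 0.05). The shares of all genes called with the chemicals of these plates are not given here, so the lack of calls is no result about the 6 genes. The largest differences without a call there were for AQP3, at -1.12 ± 0.40 with MPB (adjusted p = 0.170), 0.90 ± 0.31 with PFOS (0.489) and -0.83 with BPA (0.696).

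SGK1 rose with thiram, a dithiocarbamate fungicide, by more than any other gene of the 7 with any chemical of the later plates. The 4 libraries held 70.3, 180.8, 110.7 and 82.6 CPM, against 15.6 to 59.1 CPM (median 22.6) in 15 controls, so every thiram library was above every control. The difference was 2.24 ± 0.17 (log2, adjusted p = 2.02e-21; 1.83 and 2.26 within batches 1 and 2, the first and last replicates of each dose with the first and last controls, a division by library number that the labels do not call a batch). Below 25 µM SGK1 stayed at medians of 28.3, 24.2 and 22.6 CPM from the lowest dose up. AQP3 also rose with thiram, at 27.7, 14.3, 17.5 and 14.3 CPM against a control range of 0 to 25.8 that held 3 of the 4 (1.15 ± 0.37, adjusted p = 0.012; 1.29 in batch 1, and 0.82 with adjusted p = 0.483 in batch 2). NFAT5 rose with thiram too, at 20.7, 51.4, 24.8 and 26.7 CPM against 11.2 to 36.6 (0.81 ± 0.22, adjusted p = 0.00221; 0.41 with adjusted p = 0.532 in batch 1, 1.14 in batch 2). The AQP3 call was lost without replicate 2 (0.83) and the NFAT5 call without replicate 3 (0.39). Of all genes 25.9% were called with thiram at 25 µM. Epithelial markers moved in the same libraries: KRT14 (2.23) and KRT17 (2.19) were higher and EPCAM (-1.89) and KRT5 (-1.37) lower, and their sum was 1434 to 1824 CPM against 1355 to 2187 CPM in the controls. The 5 markers of other cell types summed to 0 to 9.82 CPM with thiram and 0 to 10.2 CPM in the controls, with PTPRC and PGR at 0 in both. The part of these markers was not tested.

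AQP3, AKR1B1 and NFAT5 rose with arsenic at 25 µM, where 41.4% of all genes were called. AQP3 was at 54.5, 64.8, 62.9 and 66.3 CPM, every library above the highest of 15 controls (0.518 to 29.4, median 17.7). This was a difference of 1.66 ± 0.32 (adjusted p = 8.17e-06; 1.68 and 1.98 within batches). At the lower doses AQP3 had medians of 9.76, 6.43 and 4.59 CPM from the lowest up, below the control median. AKR1B1 was at 1209, 1397, 1443 and 1421 CPM against 595 to 1291 (0.56 ± 0.20, adjusted p = 0.0158; 0.33 and 1.14 within batches), with 1 library inside the control range. NFAT5 was at 20.4, 26.7, 35.5 and 41.1 CPM against 9.32 to 29.6 (0.66 ± 0.18, adjusted p = 0.00164; 0.66 and 0.93 within batches). Epithelial markers fell in the same libraries, 6 of 7 being lower and 1 higher, and summed to 754 to 1389 CPM against 1702 to 2599 CPM in the controls. Of the markers of other cell types, ESR1 (4.08, adjusted p = 6.37e-09) and COL1A1 (1.20, adjusted p = 0.0173) were higher by edgeR and none lower among 4 tested. These markers together summed to 6.74 to 13.5 CPM with arsenic and 0 to 5.22 CPM in the controls, and PGR was at 0 in every control. What part these had in the results was not tested.

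SLC6A6, the taurine transporter, rose with both copper and lead. With copper it stood at 58.2, 39.6, 46 and 44.7 CPM, all above the controls (16 to 37.8, median 26.7), a difference of 0.76 ± 0.13 (adjusted p = 1.15e-05). With lead it stood at 43.5, 42.8, 38.3 and 44.3 CPM, likewise all above the controls (0.65 ± 0.13, adjusted p = 0.000479). Within batch 1 the differences were 0.92 and 0.71, and within batch 2 they were 0.57 (adjusted p = 0.209) and 0.59 (0.118), neither called. AKR1B1 rose with both as well, copper at 1884, 984, 957 and 2191 CPM (0.74 ± 0.19, adjusted p = 0.00931; 0.87 and 0.60 within batches) and lead at 1055, 1833, 1104 and 1709 CPM (0.69 ± 0.19, adjusted p = 0.0207; 0.69 and 0.82). In both cases 2 of the 4 libraries lay inside the control range, and both calls were lost without replicate 1 or without replicate 2. Last and first controls of this plate also differed in AKR1B1, by -0.91. Epithelial markers moved with both metals. With copper KRT17 (1.77), KRT14 (1.48) and KRT5 (0.55) were higher and EPCAM (-0.75) lower, the sum being 2508 to 4943 CPM, and with lead EPCAM (-1.10) and CDH1 (-0.99) were lower, the sum being 1345 to 2571 CPM. No marker of another cell type was called, and their sum was 1.82 to 9.64 CPM with copper and 2.54 to 6.02 CPM with lead. What part these markers had was not tested.

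SGK1 fell with lead, at 19.9, 16.4, 22.1 and 16 CPM within a control range of 8.04 to 46.4 (median 33.6). The difference was -0.91 ± 0.20 (adjusted p = 0.00157), with -1.22 in batch 1 and -0.32 in batch 2, where it was not called (adjusted p = 0.701). Of all genes 5.09% were called with copper and 3.85% with lead. Cadmium at 25 µM, with 2 libraries, gave no call among the 6 genes by edgeR (3 at an unadjusted p under 0.05; 11% of all genes called), with AKR1B1 at 0.77 ± 0.28 (adjusted p = 0.066), SLC5A3 at -2.92 (0.089) and SGK1 at -2.41 (0.117), where the median of all genes was -1.42. DESeq2 called 4 of the 6 with cadmium: AKR1B1 at 0.96, SGK1 at -2.14, SLC5A3 at -2.78 and AQP3. The share of all genes that DESeq2 called with cadmium is not given here. AQP3 had 0 counts in both cadmium libraries, so no difference is given for it, and SLC5A3 rested on 0 and 4 counts and SGK1 on 2 and 8.

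**Figure D5:**
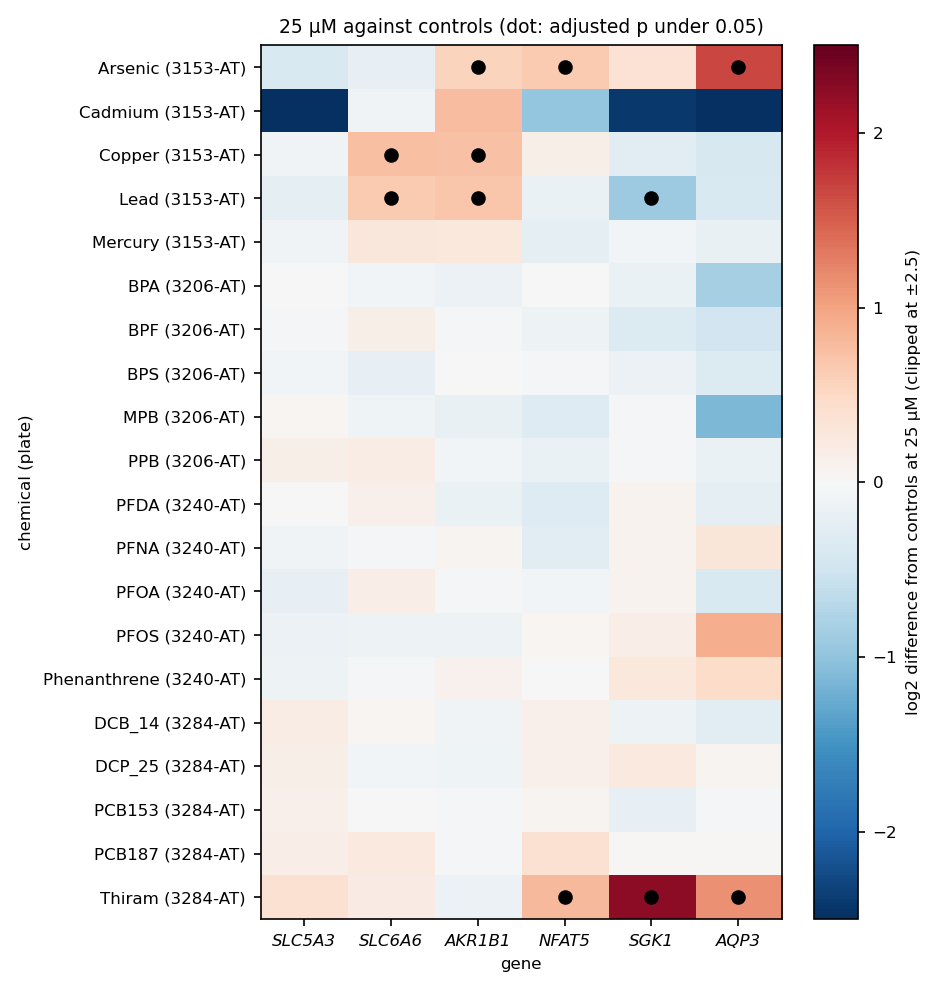
Fitted log2 difference from the plate's controls at 25 µM as colour, limited to 2.5 in either direction, for 6 genes (columns) and the 20 chemicals of the later plates (rows), with a dot where the adjusted p was under 0.05. The 11 dots lie in the arsenic, copper, lead and thiram rows, with SGK1 and thiram at 2.24 the deepest red, and the cadmium row has no dot.

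Fewer pairs passed at lower doses: 3 of 127 at 2.5 µM (0.412% of all genes), 1 at 0.25 µM (0.0748%) and 0 at 0.025 µM (0.0104%; 18 at an unadjusted p under 0.05 by edgeR, and 0 called by DESeq2). Beside SGK1 with DDE, the calls at 2.5 µM were SLC6A6 with copper, higher by 0.53 ± 0.13 (adjusted p = 0.00641), and AQP3 with copper, which fell by 1.99 ± 0.45 (adjusted p = 0.00313) at 3.45 to 6.67 CPM. AQP3 with copper was called in both batches. At 0.25 µM SLC6A6 was higher with PCB153 by 0.74 ± 0.17 (adjusted p = 0.0108), at 30.9 to 88.2 CPM (median 42.7), and without replicate 3 the difference was 0.31 and not called. A trend over the 4 doses, as the log2 change per 10-fold dose, rose for 6 pairs (3.12% of all genes called). These were AQP3 (0.73), AKR1B1 (0.27) and NFAT5 (0.25) with arsenic, SGK1 (0.55) with thiram, and SLC6A6 with copper (0.25) and lead (0.20). For AQP3 with arsenic and SGK1 with thiram, the medians given above fell over the lower doses and were higher only at the highest dose. The slopes for AQP3 with arsenic and SGK1 with thiram therefore do not show a graded rise. The replicate number was also fitted as a block, 1 term shared by all chemicals of a plate. With the block, 3 more trends were called for lead and mercury, whose libraries were taken as paired. These were AKR1B1 with lead (0.24, adjusted p = 8.03e-13 by edgeR), SGK1 with lead (-0.24, adjusted p = 0.00265) and AKR1B1 with mercury (0.15, adjusted p = 0.000282). AKR1B1 was also called with copper (0.25, adjusted p = 4.96e-14) and cadmium (0.19, adjusted p = 0.000317), whose libraries were not taken as paired. Without the block the 3 trends of lead and mercury were 0.25, -0.23 and 0.15, none of them called.

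Controls were also compared with each other. The 4 water controls of 3240-AT were numbers 39, 40, 47 and 48, the last places of each set of 8, so solvent and place cannot be told apart. On this plate AKR1B1 was at 786 to 1032 CPM (median 1013) in 4 water controls and 539 to 825 CPM (median 656) in 12 DMSO controls, higher in water by 0.54 ± 0.09 (adjusted p = 2.83e-06; 0.45 and 0.64 within batches). AQP3 was at 10.1 to 14.4 CPM in water and 1.42 to 9.09 CPM in DMSO, with no overlap, higher by 1.29 ± 0.29 (adjusted p = 0.00221; 1.51 in batch 1, and 1.09 with adjusted p = 0.184 in batch 2). These 2 of 6 genes compare with 4.08% of all genes. In the same contrast KRT14 (2.48), EPCAM (1.06) and KRT17 (1.05) were higher in water and COL1A1 (-2.56) was lower, and their part was not tested. On the DDE plate controls were labelled water and DDE libraries DMSO. The fitted differences of 25 µM DDE from controls there were -3.03 for AKR1B1, -2.37 for AQP3 and -7.10 for SLC6A12. SLC6A12 had 0 counts in all 61 controls of the later plates. DDE, solvent and plate label cannot be told apart in the DDE plate's differences, and the part of solvent was not tested. Last controls had less AKR1B1 than first controls on 3153-AT (-0.91 ± 0.17, adjusted p = 0.000273, 5.42% of all genes) and on 3206-AT (-0.42 ± 0.09, adjusted p = 0.00153, 1.69%), and no other of the 6 genes passed by edgeR on any plate (0.148% of all genes called on 3240-AT and 1.55% on 3284-AT).

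Other genes of the same pathways moved less evenly on the DDE plate. In the split of end and other libraries, given as a description, 2 of 5 tested genes of osmolyte handling were higher and 1 lower (list median 0.18, all genes 0.01), where 32.1% of all genes passed and 17.2% were higher. SLC38A2, an amino acid transporter induced by hypertonicity, was higher by 1.67 and PNPLA6, a phospholipase, by 0.94. SORD, which oxidises sorbitol to fructose, had -1.36: it was at 2.52 and 3.61 CPM in the control ends, 23 to 93.6 CPM in the other controls and 96.0 to 122.9 CPM in the 12 DDE libraries away from ends. SORD was therefore lowest where AKR1B1 was highest.

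Among 5 tested NFAT5 targets outside osmolyte handling, S100A4 (1.39) and VEGFC (1.54) were higher in ends, and the heat shock genes HSPA1A (-0.50) and HSPA4L (-0.59) were lower (list median -0.50). Of 13 genes of ion transport, 9 were higher and 0 lower (median 0.38), beside the 17.2% of all genes that were higher, among them the sodium pump subunit ATP1B1 (1.48) and the volume-regulated anion channel subunit LRRC8A (0.67). Of 6 glucocorticoid targets, TSC22D3 (2.17), ZBTB16 (0.72), DUSP1 (0.62) and PER1 (0.55) were higher and FKBP5 (-0.35) was lower (median 0.58). TSC22D3 was at 757 and 1297 CPM in the control ends and 34.6 to 89.3 CPM in the 12 DDE libraries away from ends, while FKBP5 was at 179 and 311 CPM in the control ends and 487 to 604 CPM in the other controls. KRT14, a basal keratin, was at 464 to 1142 CPM in DDE ends, 67.9 to 237.5 CPM in other DDE libraries and 691 to 1397 CPM in controls. Of the called epithelial markers, KRT14 (2.16), KRT17 (0.87), EGFR (0.75) and CDH1 (0.50) were higher in ends and TP63 (-0.83) was lower. Within the controls the ratio of mean CPM, end over other, differed between these markers. It was 1.71 for KRT17, 1.43 for KRT14, 1.04 for EGFR, 0.99 for EPCAM, 0.71 for CDH1, 0.68 for KRT5 and 0.21 for TP63.

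At 25 µM DDE against controls, where 7.77% of all genes were called and 4.22% were lower, SLC38A2 (-1.91) and PNPLA6 (-1.12) fell among 5 osmolyte genes (median -0.66), S100A4 (-1.73) and VEGFC (-2.0) among 5 NFAT5 targets (median 0.43), and 4 of 13 ion transport genes fell (median -0.45), ATP1B1 (-2.02), SCNN1A (-0.74) and LRRC8A (-0.70) among them. TSC22D3 (-2.80) and PER1 (-0.67) fell among 6 glucocorticoid targets (median -0.59), and KRT14 (-2.44) among 7 epithelial markers. No gene of these lists rose by edgeR.

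The lists were also read in the chemicals with calls on the later plates. With arsenic at 25 µM, where 41.4% of all genes were called, 4 of 6 osmolyte genes rose, GDPD5 (0.83), PNPLA6 (0.72) and SLC38A2 (0.38) among them, and SORD fell (-1.80). The NFAT5 target list had 3 higher and 1 lower of 5, HSPA1A at 4.69 and HSPA1B at 3.73 being the largest, while S100A4 fell (-2.30). Of 13 ion transport genes 6 rose and 3 fell, the sodium channel subunit SCNN1A (-3.33) among the latter. With thiram 25.9% of all genes were called. Of 5 NFAT5 targets 3 rose, the heat shock genes HSPA1B (4.67) and HSPA1A (4.15) and VEGFC (1.24), and S100A4 fell (-0.98). Among the osmolyte genes GDPD5 rose with thiram (1.24), and SORD (-1.10) and SLC38A2 (-0.65) fell. Of the thiram glucocorticoid targets 1 rose (PER1, 0.70) and 3 fell (FKBP5 at -1.68, KLF9 at -1.67 and DUSP1 at -0.70), beside SGK1, which rose. With copper (5.09% of all genes called) VEGFC rose (1.04) as 1 of 5 NFAT5 targets, and with lead (3.85%) VEGFC (0.95), HSPA1A (0.95) and HSPA1B (0.97) rose as 3 of 5.

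The genes whose course over the 24 DDE plate libraries was most like that of SLC6A12, by Pearson correlation of log2(CPM + 1), were GAREM1 (r = 0.982), ATP1B1 (0.980), SYNE2 (0.979), OPTN (0.977), TRIB3 (0.973), APP (0.969), SLCO4A1 (0.969) and CLTB (0.969). Mean GAREM1 was 313 CPM in control ends, 77.7 in other controls, 79.6 in DDE ends and 20.9 in other DDE libraries. Mean TRIB3 was 1522, 650, 740 and 150 CPM in the same order. Of 13920 genes ranked this way SLC5A3 was number 12 (0.967), AKR1B1 26 (0.960), SGK1 50 (0.949), AQP3 204 (0.915), SLC6A6 1201 (0.748) and NFAT5 1285 (0.739). The libraries share the split and the control difference, so these r values are descriptions.

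Without SLC6A12, the 15 pairs among the other 6 genes had r from 0.58 to 0.95 (median 0.79) on the DDE plate. On the later plates, with group means subtracted, the medians of the same 15 pairs were 0.0004 on 3153-AT (93 libraries), 0.20 on 3206-AT (93), -0.02 on 3240-AT (96) and 0.05 on 3284-AT (95). The 2 sets of r are not on the same footing, since the DDE plate values keep the differences between groups.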

How the data were processed

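Whole-number counts per gene symbol were deposited by the authors for 402 libraries of MCF10A cells, made by plate-based RNA-seq in which each well and plate carries a barcode, per the labels' protocols. The submitters' processing notes name STAR, featureCounts, FastQC, MultiQC and GRCh38, without versions, so strand and multi-mapping settings were not given in the sources used here. CPM are counts scaled to the library total. Each plate was fitted separately with edgeR 4.0.16 (quasi-likelihood test, TMM scaling, limma 3.58.1, R 4.3.3) with a mean per chemical and dose and per control group, after filterByExpr (minimum count 10, minimum total 15) and Benjamini-Hochberg adjustment over all genes tested on the plate, called at an adjusted p under 0.05. Genes tested were 13921 on the DDE plate and 24295, 22301, 19468 and 21307 on 3153-AT, 3206-AT, 3240-AT and 3284-AT. SLC6A12 passed this filter on the DDE plate alone. The fit was tested on simulated data. Alternatives were DESeq2 1.42.0, another scaling, no filter, replicates or controls left out, batch terms, single batches and end terms.

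End libraries are places 1, 8, 9 and 16 of a chemical (25 µM 1 to 4, 2.5 µM 5 to 8, 0.25 µM 9 to 12, 0.025 µM 13 to 16) and controls that begin or end a set of 8. On the later plates the places of dosed libraries assume the DDE plate's order of doses, since their labels number replicates within each dose. Whether replicates came from separate cultures is stated only as 4 biological replicates, so p-values measure the spread between wells. In bulk RNA, fewer cells with a transcript and less of it per cell cannot be told apart. Deviations from group means of same-numbered libraries correlated above 0.1 in every pair for lead (0.13 to 0.18) and mercury (0.12 to 0.29) and not for the other 18 of 20 chemicals, so the numbers were taken to pair the libraries of lead and mercury, from the data and not the labels. Motifs were searched on both strands. The 7 genes and all gene lists were chosen with earlier results of these data known. All 7 genes are named in every comparison, with the 8 genes most like SLC6A12 and up to 4 called genes per list, of which some are not reported here. Likeness on the later plates, where SLC6A12 was not tested, was not computed. A cadmium 25 µM library whose plate label and barcode disagree was left out, leaving 2, and MPB and PPB had 3 libraries at 0.025 µM.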

Additional observations from a re-analysis of the deposited data

Results flagged for a closer look

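In 14 of 46 groups of 4 to 10 libraries, the highest library stood apart from the others, its gap to the nearest being a larger share of the group's range than Dixon's 95% critical value. For 1 group of independent values chance gives this in about 1 of 20 cases. Each group here is 1 gene in 1 set of libraries, so the same library recurs over genes. That rate therefore does not apply to the count of 14. In all 14 the library was an end library of the DDE plate. The genes were chosen because they are high in these end libraries, so the count restates that choice and is no test of it. Among the controls these were NFAT5 in control 16 (95.9 CPM) and AQP3 in control 9 (145.6 CPM). At 0.025 µM DDE, library 16 stood apart for SLC6A12 (112.7 CPM), SLC5A3 (118.9 CPM), AKR1B1 (5447 CPM) and AQP3 (59.1 CPM). At 0.25 µM, library 9 stood apart for SLC5A3 (56.2 CPM), AKR1B1 (3115 CPM) and AQP3 (44.7 CPM). At 2.5 µM, library 8 stood apart for SLC6A12 (28.8 CPM), SLC6A6 (96.2 CPM) and AKR1B1 (4142 CPM), and at 25 µM library 1 stood apart for SLC6A12 (5.22 CPM) and AKR1B1 (1664 CPM).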

How the results depend on the processing

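Counts of called genes stayed within 1.5 times in 111 recomputed values and moved further in 32, and no named difference changed direction: 308 kept their side of the threshold and 49 lost it. At 25 µM the 8 calls on 3153-AT were 13 by DESeq2 and 6 to 9 with a replicate left out, the 3 on 3284-AT were 2 to 3, and the 5 on the DDE plate were 0 to 6 with a replicate left out (0 without replicate 2 or 3, 6 without replicate 1) and, by a choice made after seeing the data, 2 without control 9 and 3 without control 15. The 0 calls on 3206-AT were 1 without a count filter, and the 0 on 3240-AT were 1 in batch 2 alone. With a term for end libraries or with them left out, the DDE plate gave 6 calls at 25 µM. Over all plates, the 3 calls at 2.5 µM were 5 without a filter, 6 by DESeq2, 8 with a batch term, 9 with an end term, 9 with ends left out and 1 to 8 with a replicate left out. The 1 call at 0.25 µM was 3 without a filter, 6 by DESeq2, 2 with a batch term, 8 with an end term or with ends left out and 0 to 7 with a replicate left out. The 0 calls at 0.025 µM were 6 with an end term or with ends left out and 0 to 6 with a replicate left out. The 6 trends were 11 by DESeq2, 11 with a batch term and 5 to 6 with a replicate left out. Apart from those given above, the shares of all genes called under these alternatives are not given here.

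Last against first controls gave 1 call on 3153-AT (2 without a filter and 2 by DESeq2), 1 on 3206-AT (2 without a filter) and 0 on 3284-AT (1 without a filter and 1 by DESeq2). With the replicate number as a block, the 6 trends were 11. The controls are numbered by library and not by replicate, so differences from controls have no such block. With a batch term the lead calls at 25 µM held, SLC6A6 at 0.63, AKR1B1 at 0.73 and SGK1 at -0.86. For these values the cause was not tested. SGK1 with DDE at 2.5 µM lost its call in 10 recomputed values and kept it in 7. SLC6A12 was not tested on the later plates, where its total was 61 counts. Median depths were 11.9 to 13.8 M per later plate and 6.42 M on the DDE plate, and the part of depth in the SLC6A12 levels was not tested. Depth limits the cadmium values at 25 µM, whose shallower library had 1.43 M counts.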
